A study of Homo sapiens with 9 samples.

Results

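The metallothioneins are small cysteine-rich proteins that bind zinc and copper. Transcript levels of MT2A, of 6 of its relatives and of their regulator MTF1 were followed in ZR-75-1 cells. The 9 genes sought were MT2A, MT1A, MT1E, MT1F, MT1G, MT1H, MT1M, MT1X and MTF1. A probeset carried the symbol for 8 of them, among 14884 genes measured, and each of the 8 had 1 named probeset. No probeset carried MT1A as its only symbol, and probesets with several symbols were left out, so MT1A was not analysed here. MT2A was selected on its measured fall in mimic against negative control arrays, and the other genes were added by name as its family and regulator. MT2A's change in that comparison is therefore given as a description.

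ZR-75-1 is an established breast cancer cell line that expresses the estrogen receptor. All 9 samples are of this 1 line, taken 48 h after a lipid transfection (Lipofectamine RNAiMAX), and each of the 3 groups has 3 arrays. Mock cells had the lipid without RNA, negative control cells had 50 nM of a non-specific RNA, and mimic cells had 50 nM of mature miR-150-5p as a synthetic mimic, a microRNA best known from lymphocytes. The labels do not say whether the triplicates were independent experiments, so the p-values cover only the spread among these samples. Some or all of that spread may be technical.

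Metallothioneins hold zinc and copper ions in clusters of cysteine side chains, buffer free zinc and trap toxic metals such as cadmium. MT2A and the MT1 genes lie together in 1 cluster on chromosome 16 and are induced by zinc and cadmium. Some of them, such as MT2A, are also induced by glucocorticoids. MTF1 is the zinc-finger transcription factor that senses zinc and binds metal response elements in their promoters. In breast epithelium, metallothionein levels are known to vary between tumours and to rise with metal exposure.

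The RefSeq promoter table (GRCh38.p14) held 4 of the 9 genes: MT2A, MT1X, MT1H and MTF1. The 250 bases before the start site are shown for MT2A and MT1X, the members with the lowest mimic values relative to the negative control, and for MT1H, a member with low intensity in every group. Capitals mark matches to the core of the metal response element, searched as TGCACNC and TGCGCNC on both strands. The windows are chr16:56608334-56608583 for MT2A, chr16:56682220-56682469 for MT1X and chr16:56669564-56669813 for MT1H, all on the plus strand.
MT2A: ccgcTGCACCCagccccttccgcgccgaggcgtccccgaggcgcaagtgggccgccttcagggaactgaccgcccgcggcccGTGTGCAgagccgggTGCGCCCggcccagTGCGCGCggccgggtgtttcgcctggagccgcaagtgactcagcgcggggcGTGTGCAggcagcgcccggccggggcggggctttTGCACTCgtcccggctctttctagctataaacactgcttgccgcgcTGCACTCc
MT1X: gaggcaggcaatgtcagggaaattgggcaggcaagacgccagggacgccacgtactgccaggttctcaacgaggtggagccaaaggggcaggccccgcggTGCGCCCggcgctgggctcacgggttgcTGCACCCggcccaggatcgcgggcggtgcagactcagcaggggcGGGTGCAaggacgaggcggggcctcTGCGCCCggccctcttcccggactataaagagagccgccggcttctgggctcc
MT1H: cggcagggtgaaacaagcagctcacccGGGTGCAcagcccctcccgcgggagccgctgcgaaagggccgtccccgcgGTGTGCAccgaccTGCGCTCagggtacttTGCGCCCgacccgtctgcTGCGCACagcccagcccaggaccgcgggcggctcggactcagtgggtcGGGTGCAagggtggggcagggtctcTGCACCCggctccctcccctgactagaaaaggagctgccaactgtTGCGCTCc

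MT2A held 7 matches, MT1X 4 and MT1H 8, and no match overlapped another. At least 1 match was found in 24.8% of all 35116 promoter windows of the same length in the table. At least 4 matches were found in 0.37% of the windows, at least 7 in 0.0313% and at least 8 in 0.0171%. In the windows of MT1X and MT1H a match lay 53 to 47 bases before the start site, and in that of MT2A 54 to 48 bases before it. Each of the 3 also had 1 reverse-strand match close upstream of that one, 88 to 82 bases before the start in MT2A and 78 to 72 in MT1X and MT1H. The bases TATAAA, the core of the TATA box, were present in the windows of MT2A and MT1X and not in that of MT1H, against 6.80% of all windows. The MTF1 window, on chromosome 1, held 0 matches to the metal response element core. A match is a run of letters and not a measured binding site.

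**Figure D1:**
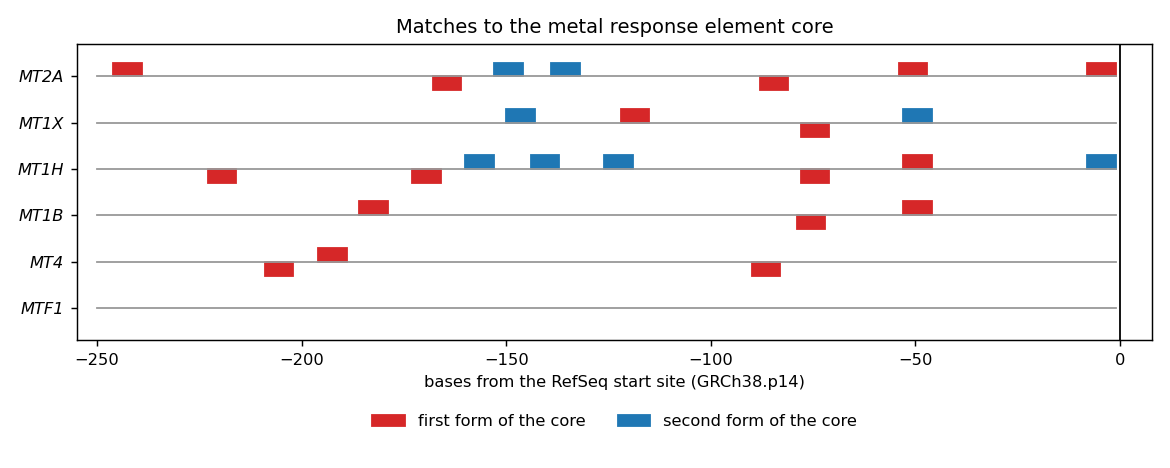
Matches to the metal response element core by distance in bases from the RefSeq start site, for the 4 members in the promoter table and for MT1B and MT4. Boxes above a line are on the gene's strand and boxes below it on the other strand, and the colours are the 2 forms of the core. MT2A has 7 boxes, MT1X 4, MT1H 8, MT1B and MT4 3 each, and MTF1 0.

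The values are log2 RMA intensities, which were equalised between arrays. Array medians across the 53617 probesets ran from 4.22 to 4.27. Mock replicate 3 correlated over genes no better with its own group (mean 0.9935) than with the other arrays (0.9937), as did mimic replicate 2 (0.9940 and 0.9941). Of 10 luminal breast markers 9 were measured, all with a mean above 5.44, the median of all genes. Their mean ran from 10.06 to 10.18 in mimic and from 9.92 to 10.08 in control arrays, and 1, ESR1, was called higher in the mimic (0.46 ± 0.07, SE, against the negative control). None of the 3 measured fibroblast or 5 endothelial markers lay above that median, and 1 of 3 leukocyte markers did, CD68 at 6.42. Of 5 basal markers 2 did, EGFR at 5.85 and OXTR at 6.49. The mean of the endothelial markers ran from 3.39 to 3.55 in mimic, 3.27 to 3.34 in negative control and 3.33 to 3.38 in mock arrays. None of these markers was called. PECAM1, the lowest in intensity at 2.84, changed most, by 0.47 ± 0.17 (SE) against the negative control and 0.59 ± 0.17 against mock. The others changed by 0.03 to 0.19 against the negative control and by -0.31 (ENG) to 0.15 against mock. The part of the endothelial markers in the results was not tested. All samples are of 1 line, and a change in a share of its cells cannot be told apart here from a change in RNA per cell.

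MT2A, MT1X and MT1F had lower values on every mimic array than on every control array. MT2A, the most widely expressed isoform in human tissues, had log2 intensities of 7.09, 7.38 and 7.17 on mimic arrays 1 to 3. On negative control arrays 1 to 3 MT2A stood at 8.04, 8.54 and 8.34, and on mock arrays at 7.89, 7.75 and 8.32. The highest mimic value of MT2A thus lay below the lowest of the 6 control values. MT2A's group means were 8.31 ± 0.25 (SD, n = 3) in negative control, 7.99 ± 0.30 in mock and 7.21 ± 0.15 in mimic arrays.

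The MT2A mean of the mimic arrays lay 1.10 ± 0.17 (SE) log2 units below the negative control, which is 2.14-fold. It was the 7th lowest change of the 14884 genes. Against mock the log2 change of MT2A was -0.78 ± 0.17, with a 95% interval from -1.15 to -0.40. It did not pass there (limma, adjusted p = 0.129). Without mock replicate 3 that change was -0.61 (limma, adjusted p = 0.187). The negative control stood above mock by 0.32 ± 0.17 for MT2A, with an interval from -0.05 to 0.69 and overlapping arrays (limma, adjusted p = 0.976). The difference between the MT2A changes against the 2 controls is this same value. The order of MT2A levels was negative control, mock, mimic, and the first 2 did not differ beyond their spread.

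MT1X, an MT1 isoform, had the widest spread among the mimic arrays. Its log2 intensities were 5.83, 6.61 and 6.89 on mimic arrays 1 to 3, 7.22, 7.62 and 7.58 on negative control arrays and 7.13, 7.08 and 7.80 on mock arrays. Mimic replicate 1 lay lowest, and mimic replicate 3 lay closest to the controls without overlapping them. The group means of MT1X were 7.48 ± 0.22 (SD, n = 3) in negative control, 7.34 ± 0.40 in mock and 6.44 ± 0.55 in mimic arrays.

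The log2 change of MT1X against the negative control was -1.03 ± 0.27 (SE), with an interval from -1.64 to -0.42. It did not pass (limma, adjusted p = 0.154), although it was the 10th lowest change of all genes. Against mock it was -0.89 ± 0.27, with an interval from -1.50 to -0.28 (limma, adjusted p = 0.269), the 7th lowest. Without mimic replicate 1 the change of MT1X was -0.73 against the negative control and -0.59 against mock. Negative control and mock differed by 0.14 ± 0.27 for MT1X (limma, adjusted p = 0.983), with overlapping arrays.

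MT1F, another MT1 isoform, had the smallest spread of the 3 in the mimic group. Its log2 intensities were 7.06, 7.23 and 7.19 on mimic arrays 1 to 3, 7.72, 7.90 and 7.72 on negative control arrays and 7.75, 8.01 and 7.55 on mock arrays. The 2 control groups covered each other and the mimic arrays lay below both. The means of MT1F were 7.78 ± 0.11 (SD, n = 3) in negative control, 7.77 ± 0.23 in mock and 7.16 ± 0.09 in mimic arrays.

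The change of MT1F was nearly the same against both controls. It was -0.62 ± 0.11 (SE) against the negative control, with an interval from -0.87 to -0.36, and it just missed the threshold of 0.05 (limma, adjusted p = 0.0509). Against mock it was -0.61 ± 0.11, with an interval from -0.87 to -0.35 (limma, adjusted p = 0.0845). Between negative control and mock it was 0.01 ± 0.11 (limma, adjusted p = 1.00).

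**Figure D2:**
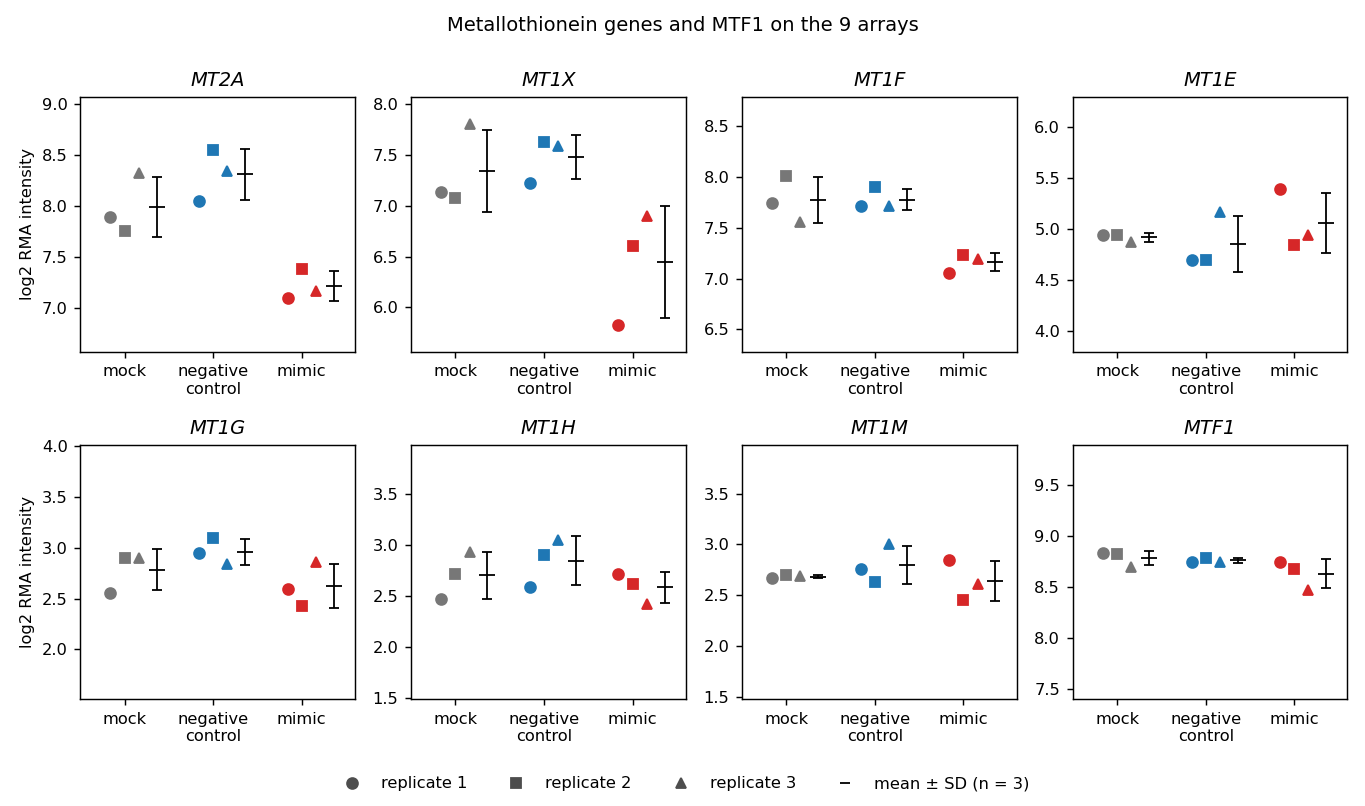
Log2 RMA intensity of the 8 measured genes on the 9 arrays, with 1 symbol per replicate number, coloured by group, and the mean ± SD of 3 arrays beside each group. Every panel spans the same number of log2 units. The mimic arrays of MT2A, MT1X and MT1F lie below all 6 control arrays, and those of the other 5 genes overlap them.

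The other MT1 members did not separate the groups. Their means over the 9 arrays, from 2.71 to 4.94, lay below the median of all genes, and the table has no detection call, so a value cannot be told from background. MT1E stood at 5.40, 4.84 and 4.94 on mimic arrays, 4.69, 4.70 and 5.17 on negative control arrays and 4.94, 4.94 and 4.87 on mock arrays. It was the only metallothionein member with a positive log2 change in the mimic, 0.21 ± 0.16 (SE) against the negative control and 0.14 ± 0.16 against mock, and mimic replicate 1 was its highest array. Without mimic replicate 1 the change of MT1E was 0.04 against the negative control and -0.03 against mock.

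MT1G stood at 2.59, 2.43 and 2.86 on mimic arrays, 2.94, 3.10 and 2.84 on negative control arrays and 2.55, 2.90 and 2.90 on mock arrays. Its log2 change was -0.34 ± 0.13 (SE) against the negative control (limma, adjusted p = 0.348) and -0.16 ± 0.13 against mock. MT1H ranged from 2.42 to 2.72 on mimic, 2.59 to 3.05 on negative control and 2.47 to 2.93 on mock arrays, with a log2 change of -0.26 ± 0.15 against the negative control and -0.12 ± 0.15 against mock. MT1M ranged from 2.46 to 2.85 on mimic, 2.63 to 3.00 on negative control and 2.67 to 2.70 on mock arrays, with a log2 change of -0.16 ± 0.12 and -0.05 ± 0.12. The interval of the change against the negative control reached down to -0.64 for MT1G, -0.59 for MT1H and -0.42 for MT1M. Falls of that size at these intensities are thus within the error. The upper ends were -0.04 for MT1G (limma, unadjusted p = 0.0313), 0.07 for MT1H and 0.10 for MT1M. Only the interval of MT1G lay wholly on the side of a fall.

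Of the 7 measured metallothionein members, 1 was called lower against the negative control, MT2A, whose fall selected it, beside 0.349% of all genes called lower. At an unadjusted p under 0.05 there were 4 of the 7, MT2A among them, beside 12.6% of all genes. All mimic arrays lay below all negative control arrays for 3 of the 7, again with MT2A among them, beside 8.01% of all genes. Against mock 0 of 7 were called by limma, with 3 at an unadjusted p under 0.05, beside 10.7% of all genes at that p, and 0.134% of all genes, 20 of 45 called, were called lower. With quantile normalization the lower calls were 22 of 34. The same 3 genes had no overlap with mock, beside 5.44% of all genes. Between negative control and mock 0 of 7 were called, 0 had an unadjusted p under 0.05, beside 4.18% of all genes, and 0% of genes were called lower. No member had all negative control arrays above all mock arrays, beside 4.77% of all genes. The median log2 change of the 7, MT2A included, was -0.34 against the negative control, -0.16 against mock and 0.14 between the controls. That of all genes was 0.01 in each comparison. The 2 comparisons of the mimic share its 3 arrays and are not independent.

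The call of MT2A rested on every array of the 2 groups. Its adjusted p (limma) was 0.0690, 0.106 or 0.135 without negative control replicate 1, 2 or 3, and 0.0920, 0.0754 or 0.0811 without mimic replicate 1, 2 or 3. It was also lost without mock replicate 1 (0.0633), which enters only through the shared spread. The log2 change itself stayed between -1.23 and -0.98 in these fits.

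**Figure D3:**
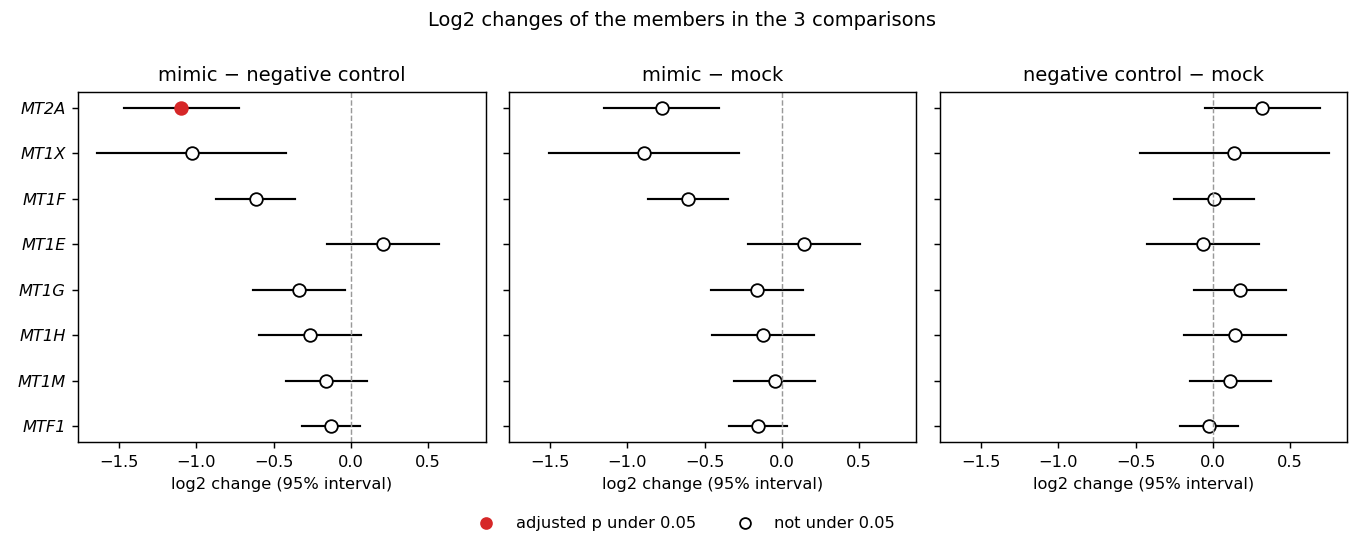
Log2 change of each gene with its 95% interval (limma, 3 arrays a group) in the 3 comparisons; a filled point has an adjusted p under 0.05. MT2A against the negative control (-1.10) is the only filled point, and the intervals of MT2A, MT1X and MT1F exclude 0 against both controls, as does that of MT1G against the negative control.

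MTF1, the metal-sensing activator of these genes, had overlapping groups. It stood at 8.75, 8.68 and 8.47 on mimic arrays, 8.75, 8.79 and 8.75 on negative control arrays and 8.83, 8.82 and 8.70 on mock arrays. Mimic replicate 3 was its lowest array. The log2 change of MTF1 was -0.13 ± 0.08 (SE) against the negative control, with an interval from -0.32 to 0.06 (limma, adjusted p = 0.572), and -0.15 ± 0.08 against mock (limma, adjusted p = 0.557). Without mimic replicate 3 these changes were -0.05 and -0.07. Its transcript level does not measure the activity of the protein.

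**Figure D4:**
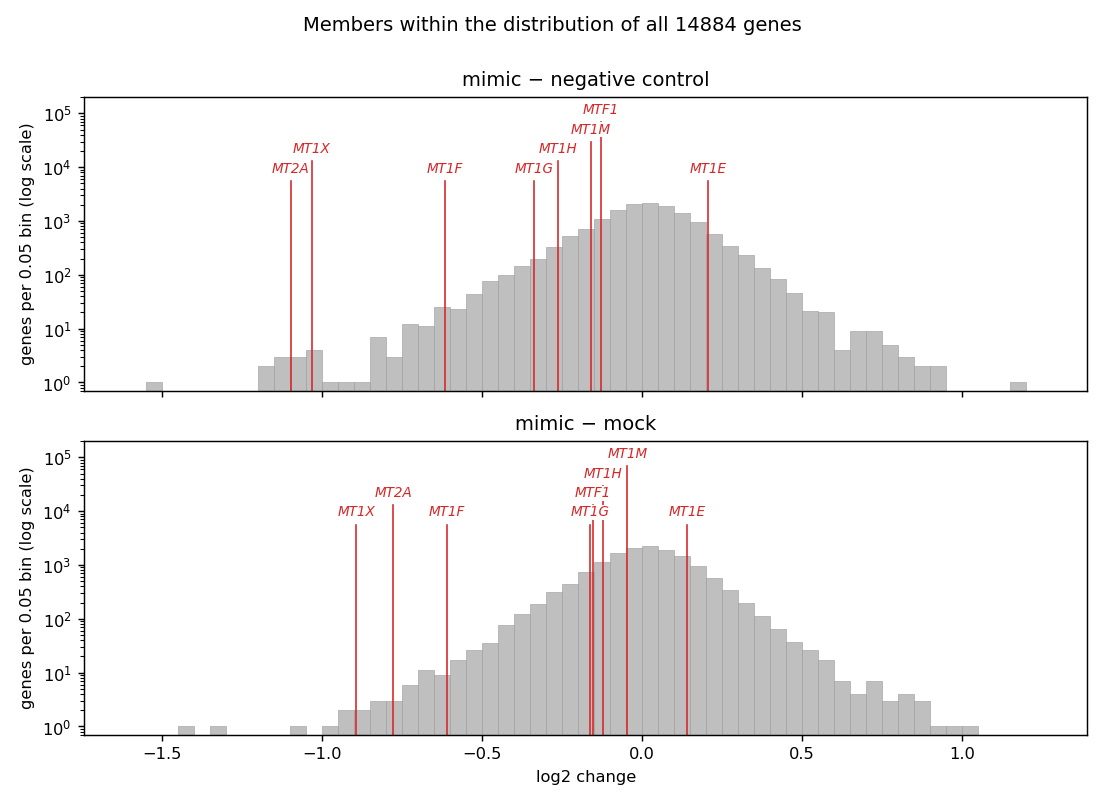
Histogram of the log2 changes of all 14884 genes, on a log scale, against the negative control (top) and against mock (bottom), with the 8 genes as red lines. MT2A (-1.10 and -0.78), MT1X (-1.03 and -0.89) and MT1F (-0.62 and -0.61) lie in the left tail, and the other 5 lie between -0.34 and 0.21.

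Among themselves, the members that stood lower in the mimic did not all vary alike within groups. MT2A and MT1X had a Pearson r of 0.89 (Spearman's rho 0.93) over the 9 arrays and of 0.70 after the group means were removed. On the 6 control arrays, where no mimic was present, their r was 0.90. Mock replicate 3 and negative control replicates 2 and 3 were the 3 highest arrays for both genes. MT2A and MT1F had an r of 0.77 over the 9 arrays, of -0.27 with group means removed and of -0.33 on the control arrays. MT1F was lowest of the control arrays on mock replicate 3, the array with the highest MT1X value.

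Other pairs were uneven too. MT1X and MTF1 had an r of 0.15 over the 9 arrays and of -0.80 with group means removed. MT1E and MT1M had an r of 0.59 and of 0.95 with group means removed, both at low intensity, where negative control replicate 3 and mimic replicate 1 were high for both genes. The arrays compared share the same normalization, and members of this family are similar in sequence. Whether their probes also bind each other's transcripts was not tested.

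**Figure D5:**
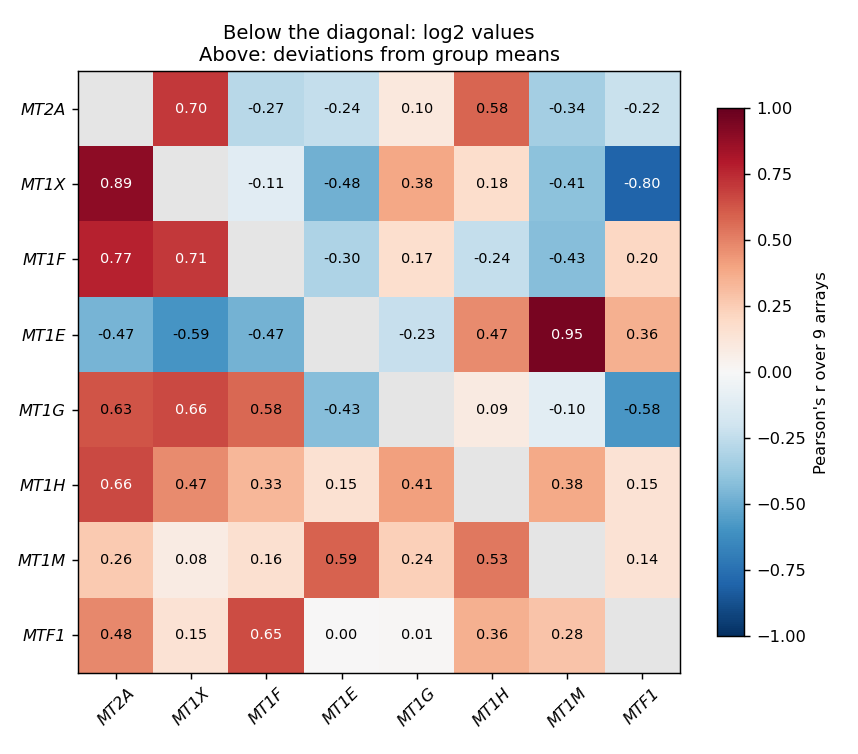
Pearson's r between the 8 genes over the 9 arrays, for the log2 values below the diagonal and for deviations from the group means above it. MT2A and MT1X have 0.89 and 0.70, MT2A and MT1F 0.77 and -0.27, and MT1X and MTF1 0.15 and -0.80.

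The genes whose pattern was most like that of MT2A over the 9 arrays, among the 7441 other genes above the median intensity, lay outside the family. They were KLHL12, an adaptor of a cullin ubiquitin ligase (r = 0.99), RDM1 (0.98), CHMP2B, a subunit of the ESCRT-III sorting complex (0.97), SMAGP (0.96) and STOM, the membrane protein stomatin (0.96). MT1X came 85th, MT1F 391st and MTF1 1601st in this order. With group means removed the r was 0.90 for KLHL12, 0.95 for RDM1, 0.84 for CHMP2B, 0.80 for SMAGP and 0.74 for STOM. These r values come from the same arrays on which the genes were chosen. The most opposite patterns were those of OPN3, an opsin (-0.97), GDF15, a stress-induced cytokine (-0.97), and FBXO33, an F-box protein (-0.97). The log2 changes of these genes against the negative control follow from the way they were chosen. They were smaller than that of MT2A, at -0.56 for KLHL12, -0.65 for STOM and 0.80 for GDF15.

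Of 13 other metallothionein genes and pseudogenes listed, 4 were measured and 0 passed in any comparison, with 0 at an unadjusted p under 0.05. That p was reached by 12.6% of all genes against the negative control, 10.7% against mock and 4.18% between the controls. The means of MT1B, MT1L and MT3 over the 9 arrays were 2.48, 2.85 and 4.91. They lay below the median of all genes, so these values cannot be told from background either. MT1L, a transcribed pseudogene, stood at 2.53, 3.32 and 3.45 on mimic arrays and between 2.58 and 3.12 on the control arrays. MT4, an isoform of stratified epithelium, stood at 6.19, 6.21 and 5.83 on mimic arrays and between 5.91 and 6.16 on the control arrays. MT3, known from brain, and MT1B changed by -0.04 ± 0.10 (SE) and -0.11 ± 0.14 against the negative control.

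None of 6 protein-coding genes that flank the metallothionein cluster had all mimic arrays below all arrays of either control. Of all genes, 8.01% had this against the negative control and 5.44% against mock. A count over so few genes cannot be told apart from those shares. The 3 nearest measured on one side were BBS2, OGFOD1 and NUDT21, and on the other NUP93, CPNE2 and RSPRY1, with 4 genes not measured between NUP93 and CPNE2. Of these 6, 1 passed: RSPRY1 rose by 0.46 against mock (limma, adjusted p = 0.0475), from 8.41, 8.45 and 8.61 on mock arrays to 8.86, 8.99 and 9.01 on mimic arrays. Of all 14884 genes, 25 were called higher against mock. Against the negative control RSPRY1 changed by 0.41 (limma, adjusted p = 0.0509). All mimic arrays of RSPRY1 lay above all arrays of both controls. Its call against mock was lost in 14 of 17 alternatives. The log2 changes of the other 5 against the negative control lay between -0.14 and 0.03. Those of CPNE2 and OGFOD1 were near 0 and changed sign with quantile normalization, and that of CPNE2 also with median centring.

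Other pathways that act on metallothionein genes or share their inducers were read from lists. Their counts at an unadjusted p under 0.05 stand beside the same 12.6% of all genes against the negative control and 10.7% against mock. Of 6 other reported MTF1 targets 3 were measured and 0 passed in any comparison, with 0 at an unadjusted p under 0.05 against the negative control and 1 against mock. PRNP, the prion protein gene, changed by -0.14 ± 0.08 (SE) and SELENOH, a selenoprotein, by 0.06 ± 0.10 against the negative control. None of the 10 SLC30 and 14 SLC39 zinc transporters had a probeset with its symbol alone in the annotation used. The 37519 other probesets were not searched for them. The transporters that move zinc out of and into the cytosol were therefore not analysed here. Of 16 copper handling genes 9 were measured and 0 passed. Against the negative control the median change was -0.04 and 1 of 9 had an unadjusted p under 0.05, a share near that of all genes. Against mock 2 of 9 were at that p, COMMD1 lower (-0.25 ± 0.10) and CCS higher (0.21 ± 0.09). COMMD1, a copper-export factor, had the lowest p against the negative control (-0.32 ± 0.10). COX11, a copper chaperone of cytochrome oxidase, changed by -0.20 ± 0.10 in that comparison. Of 10 iron handling genes 3 were measured and 0 passed. Against the negative control 1 of 3 had an unadjusted p under 0.05, HMOX1 (-0.25 ± 0.09). HMOX1 degrades heme and is induced by metals and oxidants. Against mock it changed by only -0.07 ± 0.09, with overlapping arrays, and its negative control mean stood 0.19 ± 0.09 above mock. NCOA4, the ferritin receptor of autophagy, changed by 0.11 ± 0.08 against the negative control and by 0.24 ± 0.08 against mock. There it was the 1 of 3 at an unadjusted p under 0.05. All its mimic arrays lay above all mock arrays, as did those of 1073 of all 14884 genes.

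Of 12 glucocorticoid-induced genes 9 were measured and 0 passed, with a median of 0.00 and 1 of 9 at an unadjusted p under 0.05, a share near that of all genes. Of the 9, 4 had a positive and 5 a negative change against the negative control. PER1, a clock gene, had the lowest p and changed by -0.37 ± 0.09 (SE). It stood at 6.47, 6.18 and 6.27 on mimic arrays and at 6.59, 6.71 and 6.74 on negative control arrays, while the mock arrays, from 6.31 to 6.47, overlapped the mimic. FKBP5, a glucocorticoid receptor co-chaperone, changed by -0.29 ± 0.14, and KLF15 and TAT, with p-values close to that of FKBP5, by 0.35 ± 0.17 and 0.34 ± 0.17. The list of 15 genes of the NRF2 oxidative stress response includes NRF2 itself (NFE2L2) and its inhibitor KEAP1. Of the 15 genes 10 were measured, NFE2L2 and KEAP1 among them, and 5 had a positive and 5 a negative change against each control. Against each control 1 was called lower and 0 higher, beside 0.349% of all genes called lower against the negative control and 0.134% against mock. At an unadjusted p under 0.05 there were 3 of 10 against the negative control, GSR, HMOX1 and SRXN1, and 1 against mock. GSR, glutathione reductase, fell by 0.52 ± 0.08 against the negative control (limma, adjusted p = 0.0313) and by 0.51 ± 0.08 against mock (limma, adjusted p = 0.0406). It stood at 9.73, 9.74 and 9.68 on mimic arrays, 10.24, 10.30 and 10.16 on negative control arrays and 10.23, 10.10 and 10.34 on mock arrays, with no overlap. The call of GSR was lost in 10 of 17 alternatives against the negative control and in 12 of 17 against mock. Of 14 heat shock genes, which heavy metals also induce, 8 were measured and 0 passed, with 0 at an unadjusted p under 0.05. HSPA1B changed by -0.14 ± 0.09 and HSPB1 by -0.13 ± 0.07. The medians of the oxidative stress and heat shock lists against the negative control were -0.05 and -0.10, beside 0.01 for all genes.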

How the data were processed

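RNA of ZR-75-1 cells was hybridised to 9 Affymetrix Human Gene 2.0 ST arrays, 1 sample each. The deposited values are log2 intensities per probeset made by RMA, per the submitters' processing notes, which corrects background, normalizes between arrays and summarises probes; no version and no genome build is given in the sources used here. The values range from 1.16 to 13.7, and the number of arrays limits the precision.

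A platform annotation table paired 16098 of 53617 probesets with just 1 gene symbol. Probesets with no symbol or with several were left out. A gene counts as measured where it had a probeset that was kept, and its brightest probeset over 9 arrays stood for it. The log2 values were fitted in R 4.3.3 with limma 3.58.1 (lmFit, eBayes) over all 14884 genes, without a filter on intensity. The fit had 1 mean per group and 6 residual degrees of freedom. P-values are two-sided, with Benjamini-Hochberg adjustment over all genes and a threshold of 0.05. The fit was tested on simulated data. An exact test of 3 against 3 arrays cannot go below 0.1. Errors are moderated standard errors.

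The members and lists were chosen with earlier results of these data known. Genes named are the members, passing list genes or else the 2 with the lowest p, 3 flanking genes a side, and the 5 most and 3 least like MT2A. MT3, MT1B, KLF15, TAT, SRXN1, CCS, NFE2L2, KEAP1, the marker genes and the arrays' values shown for list genes were added after their values were seen. Correlations are descriptions. Alternatives were the normalization, scaling, filter, probeset rule, features tested, arrays fitted, spread model, replicate block and each array left out.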

Additional observations from a re-analysis of the deposited data

How the results depend on the processing

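With limma, 1 member was called against the negative control, 0 against mock and 0 between the controls. Against the negative control the count was 2 with median centring, with genes above the median intensity only, and with a trend and robust prior (MT2A and MT1F each time). It was 0 over all probesets, on the arrays of the 2 groups alone and with the replicate block, and it ran from 0 to 2 with 1 array left out. MT1F passed without mock replicate 2 (limma, adjusted p = 0.0437) or 3 (0.0387). Against mock it was 2, MT2A and MT1F, with genes above the median intensity and 0 in the other 16 alternatives, and between the controls it was 0 in all 17. Quantile normalization and the mean of probesets kept the count at 1 against the negative control. MT2A passed there in 7 of 17 alternatives and kept its sign in all 17, as did MT1X and MT1F.

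The genes called overall against the negative control numbered 82, and 263 above the median intensity, 169 with the trend prior, 6 over all probesets, 8 on 2 groups, 16 with the replicate block and 7 to 121 with 1 array left out. Against mock these were 45, 102, 66, 3, 1, 3 and 1 to 10. Between same-numbered arrays, deviations from group means correlated between -0.06 and 0.13, over 0.1 in 2 of 9 pairs, with -0.06 the only negative value. Arrays with different numbers were not compared, so these values cannot decide whether the numbers pair the samples. The main fit had no block because the labels do not say that a number marks a shared experiment. With the replicate block the adjusted p (limma) of MT2A against the negative control was 0.0542.

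CPNE2 became -0.012 with quantile normalization and -0.025 with median centring, OGFOD1 -0.016 with quantile normalization, and MT1F between the controls -0.021 with quantile normalization. With 1 array left out the changes ran from -0.034 to 0.117 for SELENOH, -0.021 to 0.032 for CPNE2 and -0.0038 to 0.054 for OGFOD1 against the negative control, from -0.026 to 0.252 for MT1E and -0.150 to 0.045 for MT1M against mock, and from -0.222 to 0.015 for MT1E and -0.100 to 0.126 for MT1F between the controls. Causes were not tested.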
